A study of Mus musculus with 36 samples.

Results

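Gene expression was compared between mice given any of 3 histone deacetylase (HDAC) inhibitors and mice given vehicle, with 3 brain regions combined. All 36 arrays of the series entered this comparison, 27 from inhibitor-treated mice and 9 from vehicle-treated mice. Adult male mice, labelled C57BL/6J and bought from more than 1 supplier, 6 per treatment, received 10 daily intraperitoneal injections and were killed 1 hr after the last one. The treatments were Cpd-60 at 45 mg/kg, SAHA at 25 mg/kg, CI-994 at 10 mg/kg, or a vehicle of saline, PEG-400 and DMSO. Cpd-60 and vehicle were injected at 7.5 mL/kg and SAHA and CI-994 at 5 mL/kg, so volume differed from vehicle in 2 of the 3 inhibitor groups. Material from 2 mice was pooled, which gave 3 pools per treatment, and each pool was followed through hippocampus (HIP), nucleus accumbens (NAc) and the medial part of prefrontal cortex (PFC). The pool of mice was therefore the unit, with 9 treated pools against 3 vehicle pools. In the main fit the 3 regions of a pool were not counted as separate replicates. One Cpd-60 pool, named after mice 3 and 4 in its title, carries the numbers of the first pool in its description in each region, and the title was followed. The question was which transcripts moved the same way under all 3 compounds and in all 3 regions.

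HDACs remove acetyl groups from lysines of histones and other proteins, and class I enzymes such as HDAC1 and HDAC2 act in nuclear corepressor complexes. Their inhibition raises histone acetylation, which is usually associated with open chromatin, yet treated cells show both higher and lower transcripts. SAHA (vorinostat) is a hydroxamic acid with broad activity, CI-994 (tacedinaline) is a benzamide that acts on class I enzymes, and Cpd-60 is selective for HDAC1 and HDAC2. In brain tissue, HDAC inhibitors are studied for their effects on memory and on mood-related behavior.

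Few transcripts differed from vehicle in common, and the differences were small. Of 19447 probes tested on the 12 pool means, 209 were higher under the inhibitors at an unadjusted p under 0.05 (1.07%) and 417 were lower (2.14%), and none passed Benjamini-Hochberg adjustment with limma (smallest adjusted p = 0.492). Together these made up 3.22% of probes, fewer than pass a threshold of 0.05 by chance. Treating the arrays singly, with the pool as a random block, limma called 741 probes at an unadjusted p under 0.05 and 3 after adjustment, of Hbb-b1, Bdnf and Tpd52l1. The correlation between arrays of 1 pool was estimated at -0.00497 in that fit. It therefore counted the 3 regions of a pool nearly as separate replicates, and its calls do not rest on pools as the unit. Regardless of p, 48.9% of probes were higher and 51.1% lower. The median change over all probes was -0.0015 on the log2 scale, and the median absolute change was 0.031. Precision was set by the number of pools: the median SE of a change was 0.0464, and for 93.2% of probes the 95% interval lay within 1.2-fold in either direction. Only 23 probes had a mean change of at least 1.2-fold, 5 higher and 18 lower. Raw array medians ran from 82.2 to 108.3 intensity units, and 31.9% to 43.3% of probes had a detection p of 0.01 or less. Arrays of 1 group correlated at 0.959 to 0.995. Values here are log2 of quantile-normalized fluorescence without background subtraction, a scale that understates the change of dim probes.

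Sharing was counted directly. A transcript was counted as shared when each inhibitor differed from vehicle over the 3 regions, when the inhibitors together differed from vehicle in each region, and when all 9 inhibitor-by-region differences had 1 sign, with the largest of the 6 unadjusted p-values under 0.05. Lower transcripts met this for 8 probes (0.0411%) and higher transcripts for 0 (0%). Of the 8, 7 were probes of the beta-globin gene Hbb-b1, and the other carried the name 9530064J02, an older name of Mical2. After Benjamini-Hochberg adjustment of the largest p, limma left 0 probes (smallest adjusted p = 1). The probes nearest outside the limit were an eighth bright Hbb-b1 probe (largest limma unadjusted p = 0.0559) and Bdnf (largest limma unadjusted p = 0.0612). Sharing by the 3 inhibitors alone held for 30 probes, 5 higher and 25 lower, and sharing by the 3 regions alone for 11, 2 higher and 9 lower. The 3 inhibitor comparisons use the same vehicle pools, so these counts are not counts of independent agreement. All 9 differences were positive for 229 probes (1.18%) and negative for 317 (1.63%), and in 3 probes, each lower, all 9 were at least 1.2-fold.

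Hemoglobin transcripts were lower under every inhibitor and in every region. Hbb-b1 encodes beta-globin and Hba-a1 alpha-globin, the chains of the adult oxygen carrier of red blood cells. Of 10 Hbb-b1 probes tested, 9 were lower at an unadjusted p under 0.05, and 8 had all 9 inhibitor-by-region differences below 0. The 8 bright probes, with a mean signal above 11 on the log2 scale, were lower by 1.35- to 1.48-fold. The brightest of them (ILMN_1229203) read 12.54, 12.69 and 12.28 in the vehicle pools. It read 12.29, 12.16 and 12.05 in the Cpd-60 pools. The SAHA pools gave 11.95, 12.24 and 12.24, and the CI-994 pools 12.06, 11.89 and 11.72. Of the 9 treated pools, only Cpd-60 pool 1 lay above the lowest vehicle pool and the third vehicle pool was the closest to the treated pools. The mean difference was -0.43 (SE 0.0963, n = 9 against 3 pools; exact two-sided permutation p = 0.00909; limma adjusted p = 1). Another bright probe (ILMN_1239117) separated the 9 treated pools, which spanned 11.18 to 11.78 with a median of 11.5, from the vehicle pools at 12.16, 12.13 and 11.78, narrowly at the lower end. Its difference was -0.51 (SE 0.1086; exact permutation p = 0.00455, the smallest that 220 splits allow). The probe is named because of this separation, so the permutation p restates it.

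Beta-globin was lower by the widest margin under CI-994. Over the 8 bright probes the difference from vehicle ran from -0.61 to -0.77 under CI-994, from -0.33 to -0.46 under SAHA and from -0.30 to -0.46 under Cpd-60. No bright probe passed a test between the 3 inhibitors, although some were near it (limma F test, unadjusted p = 0.0502 for ILMN_1216452 and 0.0523 for ILMN_1223244). By region, the inhibitors together differed from vehicle by -0.54 to -0.70 in NAc over the same probes, -0.34 to -0.58 in HIP and -0.28 to -0.49 in PFC. For ILMN_1229203 the effect did not differ between regions by the test of that difference (limma unadjusted p = 0.664). In the PFC that probe read 12.96, 12.91 and 12.45 in the vehicle arrays, against a treated range of 12.04 to 12.69 with a median of 12.3. In the NAc it read 12.48, 12.6 and 12.15 against 11.41 to 12.31 with a median of 12.01. In the HIP it read 12.19, 12.54 and 12.24 against 11.71 to 12.35 with a median of 12. The groups thus overlapped in every region, and the shift was visible in the medians.

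Alpha-globin followed beta-globin. Hba-a1 read 12.31, 12.31 and 11.8 in the vehicle pools, and the treated pools spanned 11.17 to 12.08 with a median of 11.65. The difference was -0.53 (SE 0.1409; exact permutation p = 0.0182), with -0.29 under Cpd-60, -0.57 under SAHA and -0.73 under CI-994. All 9 inhibitor-by-region differences were negative, but Cpd-60 taken alone did not pass (limma unadjusted p = 0.123). Alas2, the erythroid enzyme that starts heme synthesis, was close to background at a mean of 6.89 and differed by -0.14 (limma unadjusted p = 0.0837), also with all 9 differences negative. A pair of dim Hbb-b1 probes gave -0.31 (ILMN_2544056) and -0.10 (ILMN_1235372), and neither had all 9 differences of 1 sign.

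The other blood markers were closer to vehicle. The list held 6 tested genes, of which 4 were lower and 2 higher than vehicle. Bpgm, which makes the red cell metabolite that lowers the oxygen affinity of hemoglobin, differed by 0.01 (limma unadjusted p = 0.684), and the neutrophil gene S100a8 by 0.07 (limma unadjusted p = 0.331). The summed level of the list on the linear scale was 11547 to 14649 in the treated pools and 14403 to 17765 in the vehicle pools, so the ranges overlapped narrowly. Endothelial markers had 0 of 12 at an unadjusted p under 0.05 in either direction, with a median change of -0.038. Brains were removed and frozen after decapitation, so blood in the dissected tissue and transcript in brain cells cannot be told apart, nor can fewer cells of a type and less RNA per cell in bulk samples.

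The globin difference depended on which vehicle pools and BeadChips were read. Each region was hybridized on 2 BeadChips of 6 arrays. The first of each pair held 4 treated and 2 vehicle pools and the second 5 treated pools and vehicle pool 3. Within the first BeadChips the bright Hbb-b1 probes differed by -0.50 to -0.69, and within the second by -0.11 to -0.29. Without vehicle pool 1, or without vehicle pool 2, no Hbb-b1 probe remained in the shared count and 9530064J02 was the only one left, while without vehicle pool 3 the count was 11, of which 8 were Hbb-b1 probes. It was 2 without SAHA pool 1 and 4 without Cpd-60 pool 2. The difference of ILMN_1229203 was -0.34 without vehicle pool 2, -0.41 without vehicle pool 1 and -0.55 without vehicle pool 3. With the BeadChip as a block, the difference was -0.41 for ILMN_1229203 (limma unadjusted p = 0.000579) and -0.50 for ILMN_1239117 (limma unadjusted p = 0.000558), and the shared count was 7, of which 6 were Hbb-b1 probes.

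**Figure D1:**
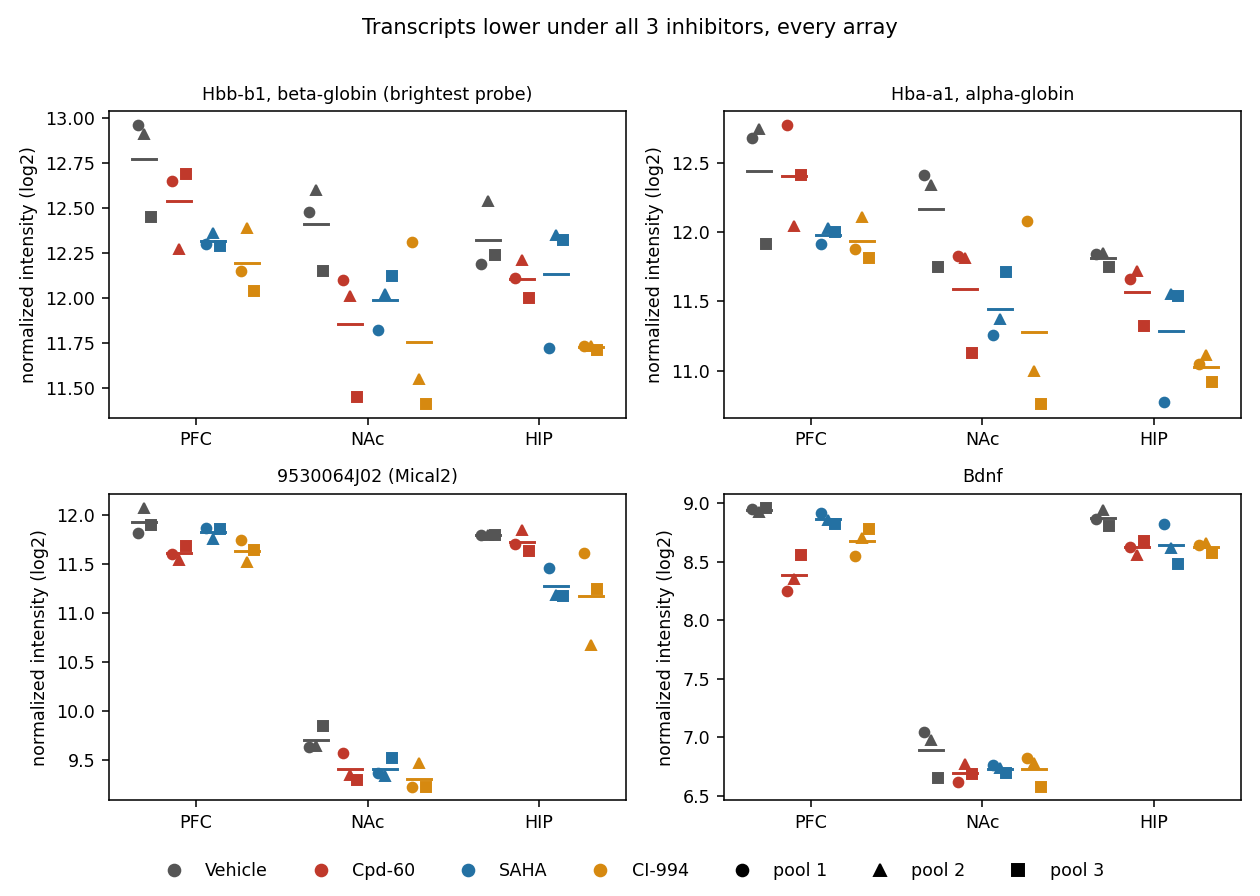
Normalized log2 intensity (vertical axis) of 4 transcripts on every array, by region (horizontal axis); symbols are pools 1 to 3, colors are treatments, and short lines are means of 3 arrays. Hbb-b1, Hba-a1, 9530064J02 and Bdnf have lower inhibitor means than vehicle means in each region. Single arrays overlap in most panels, but not for 9530064J02 in NAc, Bdnf in PFC or Hba-a1 in HIP.

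The globin promoters are shown because these were the transcripts that moved together. The array calls its beta-globin probes Hbb-b1, while mice of the C57BL/6 background carry the adult beta-globin genes Hbb-bs and Hbb-bt, which are near-identical in coding sequence, so the probes cannot be assigned to 1 copy here. The windows below are 300 bases around the start in RefSeq (GRCm38.p6), most of them upstream, read 5′ to 3′ on the gene's strand. They lie at chr7:103827879-103828178 (minus strand) for Hbb-bs, chr7:103813874-103814173 (minus strand) for Hbb-bt and chr11:32283422-32283721 (plus strand) for Hba-a1. Capitals mark CACCC and CCAAT on either strand.
Hbb-bs: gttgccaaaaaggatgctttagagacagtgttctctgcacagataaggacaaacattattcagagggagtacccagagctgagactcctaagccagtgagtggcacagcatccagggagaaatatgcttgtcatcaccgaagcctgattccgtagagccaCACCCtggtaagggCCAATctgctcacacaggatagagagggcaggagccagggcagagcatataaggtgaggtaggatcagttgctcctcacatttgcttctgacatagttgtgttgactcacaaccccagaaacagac
Hbb-bt: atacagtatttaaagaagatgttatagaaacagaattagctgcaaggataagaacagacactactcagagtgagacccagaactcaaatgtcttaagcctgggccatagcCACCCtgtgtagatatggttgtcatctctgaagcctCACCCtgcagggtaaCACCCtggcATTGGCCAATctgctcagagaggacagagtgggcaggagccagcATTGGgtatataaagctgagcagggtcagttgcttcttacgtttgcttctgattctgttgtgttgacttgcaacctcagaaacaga
Hba-a1: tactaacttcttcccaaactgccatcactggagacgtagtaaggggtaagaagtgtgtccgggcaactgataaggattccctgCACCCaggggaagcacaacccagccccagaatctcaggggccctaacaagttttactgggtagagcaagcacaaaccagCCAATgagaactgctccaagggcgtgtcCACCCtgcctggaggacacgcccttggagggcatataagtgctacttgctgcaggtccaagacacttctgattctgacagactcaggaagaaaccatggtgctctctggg
CACCC and CCAAT are elements of globin promoters, the former read by erythroid Krüppel-like factor. Both were found in all 4 adult globin windows looked at, which were these and Hba-a2. Over the 32851 windows of the table, CACCC was in 57.5% and CCAAT in 37.4%. The Hba-a2 window nearly repeats the sequence of Hba-a1, so the 4 are not separate cases. Both motifs are known parts of such promoters, so their presence is no test of enrichment. The search for CACCC was added after the globin values were seen. The GC box GGGCGG was in 0 of 4 globin windows and in 35.7% of all windows, and the half-site AGAACA of the glucocorticoid receptor was in the windows of Hbb-bs and Hbb-bt and in 19.0% of all. These are matches of letters and say nothing of what bound there.

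The 9530064J02 probe (ILMN_2636004) was lower in every treated pool. RefSeq lists this name under Mical2, whose protein oxidizes actin and so takes filaments apart. The vehicle pools read 11.08, 11.17 and 11.18. The Cpd-60 pools read 10.96, 10.92 and 10.87, the SAHA pools 10.9, 10.75 and 10.85, and the CI-994 pools 10.86, 10.55 and 10.71. No treated pool reached the lowest vehicle pool, and the order of the means over the 3 regions was vehicle, Cpd-60, SAHA, CI-994. The difference was -0.32 (SE 0.0564, 1.25-fold; exact permutation p = 0.00455; limma unadjusted p = 9.64e-05, adjusted p = 0.938), and the 3 inhibitors differed among themselves at an unadjusted p = 0.0329. The regions had distinct levels of this transcript: the vehicle mean was 11.93 in PFC and 11.79 in HIP but 9.71 in NAc. In the HIP the vehicle arrays lay within 11.79 to 11.8, while the treated arrays spanned 10.67 to 11.85. The HIP difference was only -0.07 under Cpd-60, against -0.52 under SAHA and -0.62 under CI-994. The order was another in PFC, with -0.32 under Cpd-60, -0.11 under SAHA and -0.30 under CI-994. The NAc differences were -0.30, -0.30 and -0.39. In the NAc the treated arrays spanned 9.23 to 9.57 and none reached the vehicle arrays, at 9.63, 9.64 and 9.85. The effect was -0.22 within the first BeadChips and -0.43 within the second. No other probe that matched Mical2 was tested, so the identity rests on 1 probe and a listed synonym. The probe left the shared count with scaling to the 75th percentile and without the SAHA hippocampal arrays of pools 2 and 3, which were dim, although its difference was then -0.34 and -0.30. It was also absent from the shared count when SAHA or the NAc was left out.

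Bdnf, brain-derived neurotrophic factor, a secreted ligand of the TrkB receptor that supports synapses, was lower in each of the 9 comparisons. The vehicle pools read 8.29, 8.28 and 8.14. The Cpd-60 pools read 7.84, 7.89 and 7.98, the SAHA pools 8.17, 8.07 and 8, and the CI-994 pools 8, 8.05 and 7.98. One SAHA pool lay above the lowest vehicle pool, and the other treated pools lay below it. The difference was -0.24 (SE 0.0469, 1.18-fold; exact permutation p = 0.00909; limma unadjusted p = 0.000257, adjusted p = 0.992). It was widest under Cpd-60, at -0.34, against -0.16 under SAHA and -0.23 under CI-994, and the inhibitors differed at an unadjusted p = 0.0303. In the NAc the signal was close to background, at 6.58 to 6.82 in treated arrays and 6.65 to 7.05 in vehicle arrays. The NAc difference of -0.18 did not pass (limma unadjusted p = 0.0612), against -0.30 in PFC and -0.24 in HIP. After background correction with neqc the Bdnf difference was -0.39. Within the first BeadChips it was -0.31 and within the second -0.12. The other 10 tested genes of the neurotrophin list, receptors such as Ntrk2 and Ngfr and adaptors such as Frs2 and Shc1, stayed above an unadjusted p of 0.05, and the median of the list of 11 was 0.02.

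Tpd52l1 had the smallest p-value among all probes of the pooled comparison and was higher. It encodes a member of the tumor protein D52 family. The vehicle pools read 8.05, 7.96 and 8.07. The Cpd-60 pools read 8.27, 8.27 and 8.22, the SAHA pools 8.1, 8.06 and 8.16, and the CI-994 pools 8.43, 8.49 and 8.41. The CI-994 pools were the highest and the SAHA pools touched the vehicle range. The difference was 0.24 (SE 0.0358; limma unadjusted p = 2.53e-05, adjusted p = 0.492; exact permutation p = 0.0318), with all 9 differences positive. It was not shared by the inhibitors, since SAHA gave 0.07 (limma unadjusted p = 0.115) against 0.23 under Cpd-60 and 0.41 under CI-994. The CI-994 comparison was the one that passed adjustment for this probe (limma adjusted p = 0.0144). The second Tpd52l1 probe (ILMN_1249224) gave 0.20, with -0.02 under SAHA and 0.40 under CI-994.

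Beside globin and 9530064J02, the genes lower in all pools had changes near 0.2 or less. The 12 named in each direction had the largest changes among probes at an unadjusted p under 0.05 with all 9 differences of 1 sign and with no treated pool mean inside the vehicle range. Complete separation of the pool means in this sense was seen for 44 probes in the higher direction (0.226%) and 80 in the lower (0.411%), and no probe had its single arrays separated in all 3 regions. With exchangeable pools, 1 of the 220 splits (0.00455) gives it in each direction, and both shares were below that. The p-values of the named genes restate this choice and are not separate support. That includes Hbb-b1 ILMN_1239117 and 9530064J02 above and Rpl24 below. Prr7, a membrane protein of synapses, differed by -0.19, with vehicle pools from 8.88 to 8.96 and treated pools from 8.58 to 8.84. Zfhx2, a zinc finger homeobox factor, differed by -0.19, most under Cpd-60 at -0.34. Dyrk1b, a protein kinase, differed by -0.18. Zcchc8, a scaffold of the nuclear exosome targeting complex, differed by -0.15, and its inhibitors differed among themselves (unadjusted p = 0.00158), with -0.28 under Cpd-60 against -0.08 under both SAHA and CI-994. Fbxw7, the substrate receptor of a ubiquitin ligase that targets cyclin E and Myc, read 9.8, 9.89 and 9.83 in the vehicle pools and 9.56 to 9.78 in the treated pools. The others were LOC382972, the lipid transfer protein gene Stard5, the neuronal antigen gene Pnma1, 6430590I03Rik (Magef1) and 1110012J17Rik (Mtcl1), from -0.15 to -0.13.

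Higher transcripts of this kind were smaller still, from 0.09 to 0.15. Rpl24, a protein of the large ribosomal subunit, read 10.88, 10.89 and 10.92 in the vehicle pools and 10.99 to 11.15 in the treated pools. Its difference was 0.15 (SE 0.0308; exact permutation p = 0.00455; limma unadjusted p = 0.000337), and each inhibitor passed an unadjusted p of 0.05, with 0.11 under Cpd-60, 0.13 under SAHA and 0.22 under CI-994. By region it was 0.25 in HIP, 0.13 in NAc and 0.08 in PFC, and the PFC did not pass (limma unadjusted p = 0.319). Casp6, an effector caspase, differed by 0.12 and Sec13, a subunit of the COPII coat and of nuclear pores, by 0.12. Ptplb (Hacd2), an enzyme of very long chain fatty acid synthesis, differed by 0.14, with 0.25 under Cpd-60 against 0.07 under SAHA and 0.11 under CI-994. The remaining genes were Akap2, LOC675377, LOC386405, Abhd3, Ppapdc1a (Plpp4), 9530050F08Rik, Ccdc132 (Vps50) and AW551984. LOC386405, 9530050F08Rik and AW551984 were not detected on all 36 arrays, at a detection p of 0.2 or less. Ppapdc1a, Casp6, Ptplb and, among the lower genes, Stard5 were also dim, with mean signals of 6.92, 7.02, 7.17 and 7.

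Over these 24 genes, 11 passed an unadjusted p of 0.05 under each inhibitor and 2 in each region. The 2 were Hbb-b1 and 9530064J02. In 5 of 24 the inhibitors differed among themselves at an unadjusted p under 0.05, against 10.5% of all probes. In 0 of 24 the regions did, against 1.64% of all probes, and the choice of genes with 1 sign throughout favors agreement between regions. Beside Hbb-b1, other tested probes of the same gene existed for 10 of them and were smaller in size. Fbxw7 gave -0.11 and 0.02, Zfhx2 -0.15, Dyrk1b 0.02, Pnma1 -0.05 and 0.00, and Casp6 0.02. Zcchc8 and Stard5 gave -0.04, AW551984 0.08 and 0.02, Akap2 0.02 and -0.06, and Ppapdc1a -0.0.

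**Figure D2:**
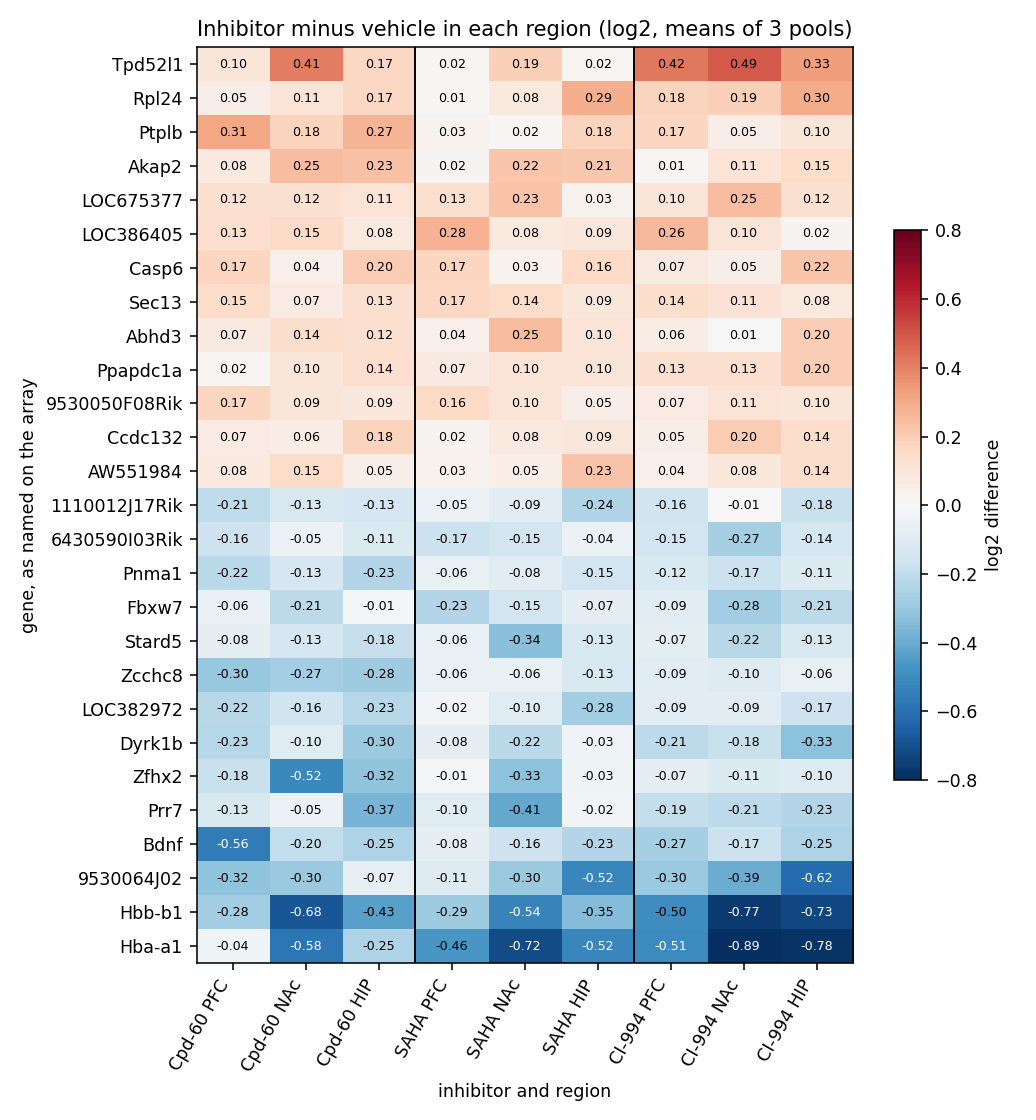
Difference of each inhibitor from vehicle in each region (log2, means of 3 pools; number in each cell; the color scale ends at -0.8 and 0.8) for the 24 genes named by change plus Tpd52l1, Bdnf and Hba-a1. Rows are genes from higher to lower mean change; Hbb-b1 (probe ILMN_1239117) and Hba-a1 are lower in all 9 columns.

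Sequence around the starts of these genes was searched for short motifs on both strands. Promoter windows were found for 8 of the 12 higher and 9 of the 12 lower genes. GGGCGG was in 6 of 8 and 7 of 9, against 35.7% of all windows. TGACG, part of a cAMP response element, was in 3 of 8 and 4 of 9, against 20.8%. AGAACA was in 3 of 8 and 0 of 9, against 19.0%, and the E-box CACGTG in 3 of 8 and 2 of 9, against 7.15%. CCAAT was in 3 of 8 and 3 of 9. With so few windows these counts are descriptions.

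The tested genes of the deacetylase machinery itself were close to vehicle. Of 10 HDAC genes tested, none was at an unadjusted p under 0.05, with changes from -0.06 for Hdac11 to 0.05 for Hdac2 and a median of 0.016. Hdac1 had no probe matched on the array, so its transcript was not measured. Of 19 corepressor subunits, 1 was higher at that level, against 1.07% of all probes. It was Rbbp4, a histone-binding subunit, by 0.10 (limma unadjusted p = 0.0376), with 0.19 under Cpd-60 and 0.02 under SAHA. Of 21 histone genes 0 passed in either direction.

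Genes often induced by HDAC inhibitors in cultured cells were mostly above vehicle, by little. In the pooled comparison 15 of 16 were higher, beside 48.9% of all probes, and 1 lower, with a median of 0.045 beside -0.0015 over all probes. At an unadjusted p under 0.05, 2 were higher, against 1.07% of all probes. By inhibitor the medians were 0.182 under Cpd-60, 0.014 under SAHA and 0.031 under CI-994, with 8, 1 and 0 members higher at p under 0.05. Over all probes those shares were 3.85%, 1.08% and 1.94%. Gadd45g, a stress and DNA damage response gene, read 8.77, 8.64 and 8.82 in the vehicle pools and 8.76 to 9.19 in the treated pools. It differed by 0.20 (SE 0.0655; exact permutation p = 0.0409), with 0.30 under Cpd-60, 0.22 under SAHA and 0.09 under CI-994. Mt1, a metallothionein that binds zinc and copper, differed by 0.19 (exact permutation p = 0.0955), with 0.37, 0.11 and 0.10. Cdkn1a, the cell cycle inhibitor p21 and a common marker of HDAC inhibition in cell culture, differed by 0.09 (limma unadjusted p = 0.722).

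Glucocorticoid-induced genes were mostly above vehicle in the pooled comparison, with the highest values under Cpd-60. Of 30 tested genes 28 were higher, beside 48.9% of all probes, with a median of 0.075. Yet 2 of 30 were higher at an unadjusted p under 0.05, against 1.07% of all probes. Under Cpd-60 the median was 0.277 and 19 were higher at p under 0.05 (3.85% of all probes). Under SAHA the median was 0.027 with 1, and under CI-994 it was -0.022 with 0 higher and 1 lower. Sgk1, a kinase induced by corticosteroids, read 11.02, 10.92 and 10.16 in the Cpd-60 pools. The vehicle pools read 9.88, 9.97 and 10.01, the SAHA pools 10.24, 9.96 and 9.86, and the CI-994 pools 9.91, 9.86 and 9.89. Cpd-60 pools 1 and 2 stood apart and the third lay close to the other treatments. The inhibitors differed for Sgk1 at an unadjusted p = 0.00131, and the pooled difference of 0.25 did not pass (limma unadjusted p = 0.113). Tsc22d3, which encodes the glucocorticoid-induced leucine zipper, gave 0.61 under Cpd-60, 0.11 under SAHA and -0.07 under CI-994. The study had chosen 8 genes on these arrays for PCR, Sgk1 and Tsc22d3 among them, so that list is not independent evidence of a direction. Of the 8, 2 were higher at an unadjusted p under 0.05 in the pooled comparison, Agxt2l1 by 0.23 and Cacng5 by 0.14, and for both the Cpd-60 value was the highest, at 0.58 and 0.35.

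**Figure D3:**
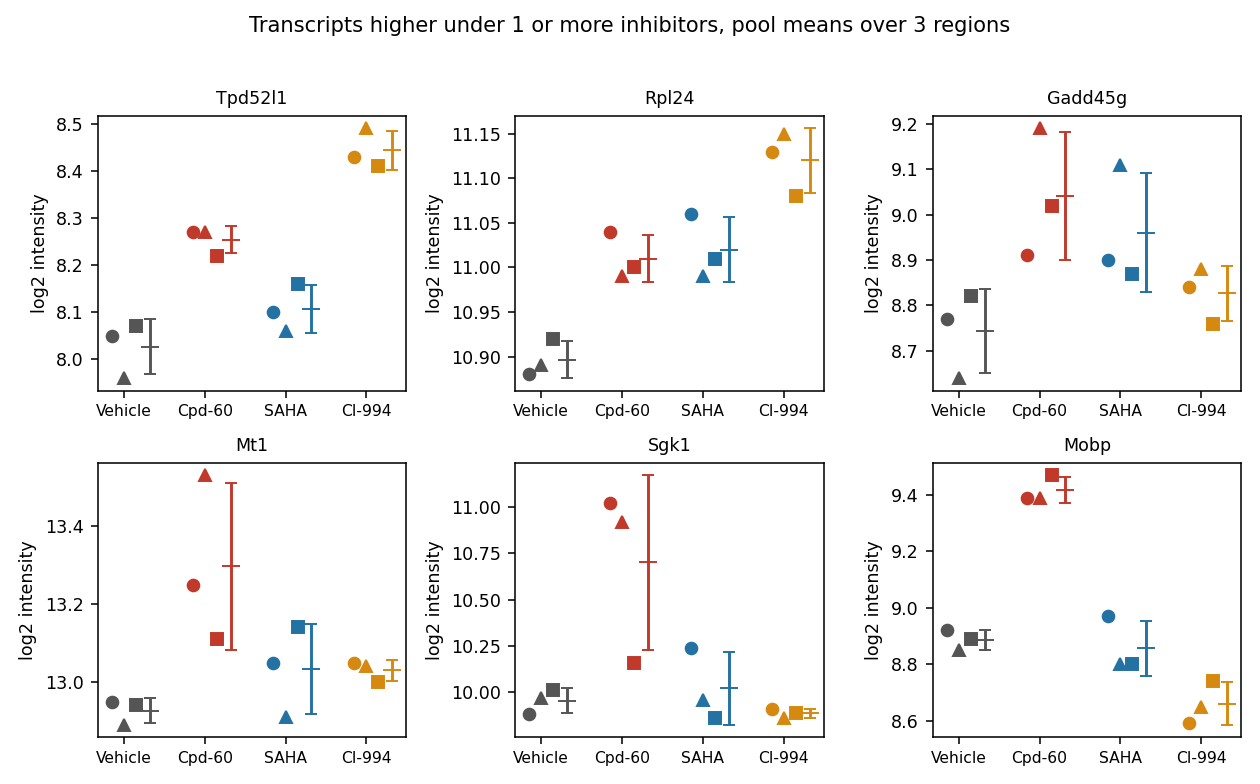
Pool means over 3 regions (log2 intensity, vertical axis) of 6 transcripts in the 4 treatments; symbols are pools 1 to 3, and bars are mean ± SD of 3 pools. Rpl24 is above vehicle in all 9 treated pools, while Sgk1 and the Mobp probe ILMN_1223628 are above vehicle under Cpd-60 and not under CI-994.

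A direct test between the inhibitors found more than the shared comparison. The F test between the 3 inhibitors had 2046 probes at an unadjusted p under 0.05 (10.5%) and 1 after adjustment, a probe of Mobp, a protein of central myelin. Against vehicle over the 3 regions, Cpd-60 gave 1774 probes at an unadjusted p under 0.05 (9.12%), SAHA 500 (2.57%) and CI-994 787 (4.05%), with 1, 0 and 1 after adjustment. Lower probes outnumbered higher ones under Cpd-60 (5.28% against 3.85%), SAHA (1.49% against 1.08%) and CI-994 (2.1% against 1.94%). Between the inhibitors, limma called 736 probes after adjustment without Cpd-60 pool 3 and 53 with a BeadChip block. The F test between the 3 regions had 318 probes (1.64%) at an unadjusted p under 0.05 and 0 after adjustment with limma. The inhibitors together against vehicle gave 619 probes for HIP (3.18%), 420 for NAc (2.16%) and 397 for PFC (2.04%), none after adjustment. Higher and lower probes made up 1.32% and 1.86% in HIP, 0.602% and 1.56% in NAc, and 0.987% and 1.05% in PFC.

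Few genes of the activity, clock, synapse and channel lists passed, and those that did were lower. Of 18 immediate early genes 0 were higher and 2 lower at an unadjusted p under 0.05. Over all probes, 1.07% were higher and 2.14% lower at that level. Egr3, a zinc finger factor induced by synaptic activity, differed by -0.16 with all 9 differences negative (exact permutation p = 0.0864), and Fosl2 by -0.13. Arc, which acts at active synapses, differed by 0.24 with all 9 differences positive and a limma unadjusted p = 0.246. Of 17 circadian clock genes 1 was lower, Per2, by -0.16, with -0.28 in PFC and -0.21 in NAc against 0.02 in HIP. Of 25 synaptic vesicle genes 2 were lower, Syt4 by -0.09 and Stx1a by -0.13. Of 39 potassium channel genes 3 were lower, Kcnh1 by -0.17, Kcnv1 by -0.14 and Kcnq5 by -0.11. Of 32 glutamate receptor and scaffold genes, and of 16 genes of GABA synthesis and receptors, 0 passed in either direction.

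Housekeeping groups stayed close to vehicle. In the pooled comparison, 1.07% of all probes were higher and 2.14% lower at an unadjusted p under 0.05. Of 59 ribosomal protein genes in the list 4 were higher at an unadjusted p under 0.05 and 1 lower, with a median of 0.025. Under CI-994 the median was 0.085, with 14 higher (1.94% of all probes) and 0 lower (2.1%), against -0.015 under Cpd-60 and 0.017 under SAHA. Of 32 proteasome subunits 2 were higher, Psmd12 by 0.13 and Psmb5 by 0.10. Of 71 genes of oxidative phosphorylation 1 was higher, Ndufa2 by 0.08. Lists of heat shock genes (23), and of cholesterol synthesis and uptake (18), had 0 in either direction, and the list of metallothioneins and oxidative stress genes (14) had 2 higher, Mt1 and the glutathione synthesis gene Gclm, by 0.15.

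**Figure D4:**
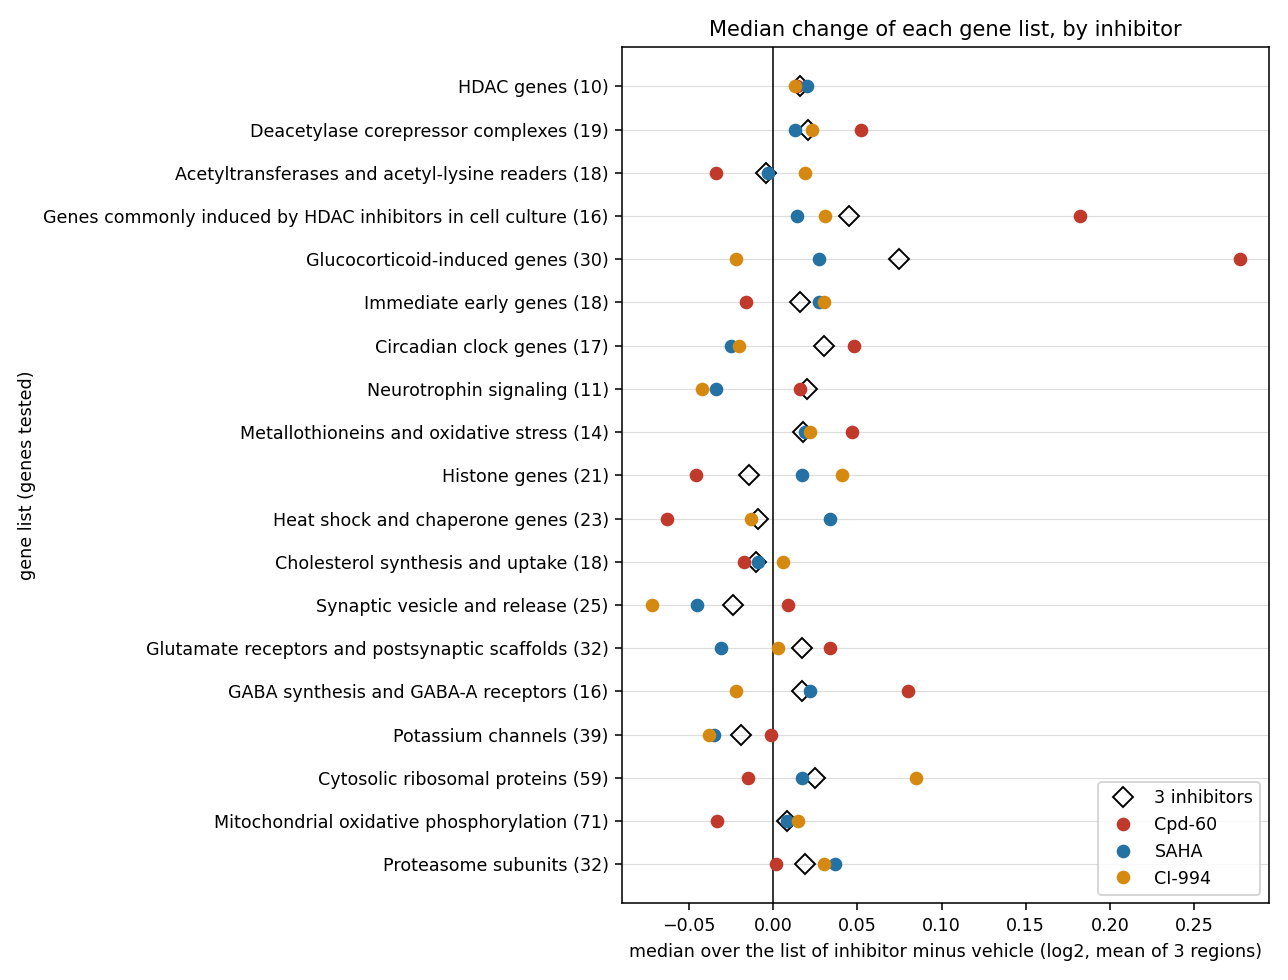
Median change against vehicle (log2, mean of 3 regions, horizontal axis) of the pathway gene lists (marker lists and the PCR list are not drawn), with genes tested in parentheses; diamonds are the 3 inhibitors together and circles single inhibitors. Among the lists drawn, medians of the 3 together stay between -0.024 and 0.075, and the Cpd-60 median of the glucocorticoid list is 0.277.

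The dissections were checked against regional markers, as the mean log2 level of each list on each array. Striatal markers ran from 10.61 to 11.28 for NAc, against 8.01 to 8.31 for PFC and 7.62 to 7.86 for HIP. Hippocampal field markers ran from 9.16 to 9.31 for HIP, against 7.69 to 7.84 for PFC and 7.44 to 7.67 for NAc. Cortical glutamatergic markers ran from 9.74 to 10.05 for PFC, against 8.13 to 8.48 for NAc and 8.99 to 9.23 for HIP. Between treated and vehicle pools, few cell type markers passed over the 3 regions. Over all probes, 1.07% were higher and 2.14% lower at an unadjusted p under 0.05. Of 11 astrocyte markers 1 was higher at an unadjusted p under 0.05, the gap junction gene Gja1 by 0.15, with a median of 0.058 and a summed level of 16510 to 18864 in treated pools against 16342 to 17178 in vehicle pools. Of 11 microglial markers 1 was lower, the fractalkine receptor gene Cx3cr1 by -0.18 with all 9 differences negative, with summed levels of 2947 to 3112 against 3017 to 3158. Of 14 oligodendrocyte markers 0 passed over the 3 regions, but the regions differed in direction. In PFC all 14 were higher (median 0.124), 1 of them at an unadjusted p under 0.05 (0.987% of all probes), and in HIP 12 were lower (median -0.165), 5 of them at that level (1.86% of all probes). The difference between regions was not tested for the list, whose summed level was 17701 to 24422 in treated pools and 19395 to 21119 in vehicle pools. Of 8 choroid plexus markers 0 passed in either direction, and the choroid plexus sum ranged from 1789 to 3487 in treated pools and from 2023 to 2349 in vehicle pools. Markers of striatal neurons had a median of -0.065, with 0 of 10 at that level, and in the NAc 9 of 10 were lower with a median of -0.171. Of 10 markers of hippocampal fields 2 were higher, Bok by 0.17 and Fibcd1 by 0.16, and 1 lower, Zfp288 (Zbtb20), by -0.09. Of 8 markers of hypothalamus and thalamus 1 was lower, Oxt, by -0.15, and of 10 interneuron markers 1 was higher, Htr3a, by 0.09. The part of tissue composition in the results above was not tested.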

How the data were processed

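The deposited table held raw fluorescence intensity per probe and a detection p-value for each of 36 MouseWG-6 BeadChip arrays. The authors had not normalized these values or subtracted background. All arrays were quantile normalized together, floored at 1 and log2 transformed (R 4.3.3, limma 3.58.1). A probe was tested when, in each region, every one of the 3 arrays of some treatment group had a detection p-value of 0.2 or less. Values were averaged over the 3 regions of a pool, and limma was fitted to the 12 pool means with 4 treatment groups. Region effects were fitted per region, and the difference between regions on 36 arrays with the pool as a random block. Multiple testing used the Benjamini-Hochberg method, and exact permutation tests ran over the 220 splits of pools. The fits were tested on simulated data.

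Up to 12 genes per direction were named, those with the largest change among probes past the threshold (unadjusted p under 0.05, as too few passed adjustment), with 9 differences of 1 sign and treated pools beyond all vehicle pools. Members of gene lists at that level, shared probes and the genes measured by PCR were also named, and Arc, Cdkn1a, the other blood markers and Tpd52l1 were chosen after their values were seen. The members, gene lists and motifs were chosen with earlier results of these data known. Motifs were searched on both strands of the promoter windows. Symbols were updated through RefSeq, which matched 21929 of 30869. The labels name a different RNA column kit from the published methods. P-values measure the spread between pools of 2 mice. Results for some members of the gene lists are not reported here.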

Additional observations from a re-analysis of the deposited data

Results flagged for a closer look

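Of 35 values examined for a sample far from the rest of its group, 2 had one, where chance gives about 1 in 20. For Zfhx2, Cpd-60 pool 2 read 8.65 against 8.95 to 9.17 in the other 8 treated pools, and the gap was 0.573 of the range. For Dyrk1b, CI-994 pool 2 read 7.65, and the gap was 0.495 of the range.

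The Mobp probe ILMN_1223628 differed between the inhibitors by the limma F test (adjusted p = 0.000664). The vehicle pools read 8.92, 8.85 and 8.89 and the Cpd-60 pools 9.39, 9.39 and 9.47. The SAHA pools read 8.97, 8.80 and 8.80, and the CI-994 pools 8.59, 8.65 and 8.74. The difference from vehicle was 0.53 under Cpd-60, -0.03 under SAHA and -0.23 under CI-994, and the mean of the 3 was 0.09. Of the other Mobp probes tested, the brighter ILMN_2547305 and ILMN_3097381 gave 0.05 and -0.02 in the mean of the 3. ILMN_3024681 gave 0.02 and ILMN_1240997 -0.07, and none of these passed an unadjusted p of 0.05 with limma. Nor did ILMN_1223628 itself in that mean (limma unadjusted p = 0.0713), where opposite changes cancel. The mean of the 3 therefore cannot show whether the other probes differed between the inhibitors. Under Cpd-60, 0 of 14 oligodendrocyte markers passed that level, with Mobp read by its brightest probe.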

How the results depend on the processing

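No probe passed adjustment in the pooled comparison under any setting run, except for 3 with the pool as a random block, with or without the dim SAHA hippocampal arrays of pools 2 and 3. Of the 24 named genes, whose choice fixes their sign when samples are left out, 14 had an unadjusted p under 0.05 without the NAc and 16 without the HIP. The count at an unadjusted p under 0.05 (626) was 245 with 75th percentile scaling, 1804 without the detection filter and 1078 with the BeadChip as a block, and 349 to 1046 with 1 pool left out. The count shared by the 3 inhibitors (30) was 16 with 75th percentile scaling, 124 without the filter, 66 with the BeadChip block, 60 without moderation, 57 without the HIP, and 161, 126 and 95 without Cpd-60, SAHA or CI-994. It was 22 to 64 with 1 pool left out. The count shared by the 3 regions (11) was 6 with 75th percentile scaling, 6 without moderation, 3 without CI-994, and 18, 25 and 24 without the PFC, NAc or HIP, and 2 to 20 with 1 pool left out. The count shared by both (8) was 3 without moderation, 3 without CI-994, 3 without the PFC, 13 without SAHA and 13 without the HIP, and 1 to 11 with 1 pool left out. With 2 groups in the design it had no value. The number called between inhibitors after adjustment (1) was 2 with neqc, 53 with the BeadChip block, 0 without Cpd-60 and 0 without the HIP, and 1 to 736 with 1 pool left out. The cause was not tested. Without Cpd-60, Sgk1 was -0.0023 and Mobp -0.13. Without the HIP, the dim Hbb-b1 probe ILMN_1235372 was 0.009 and Rps27a 0.02. Pool numbers were not taken to pair the pools, since not every same-number correlation was positive. Same-numbered pools of different treatments correlated in their deviations at -0.287 to 0.645 (median 0.259, 18 pairs), and 7 of 12 pools correlated best with their own number. With the replicate block, 884 probes had an unadjusted p under 0.05, 50 were shared by the 3 inhibitors, 10 by inhibitors and regions, and 2 were called between inhibitors.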

Other observations

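Some probes with a mean change of at least 1.2-fold did not meet the shared count as a whole. Calb2, the interneuron gene of calretinin, differed by 0.30 with all 9 differences positive (limma unadjusted p = 0.0612), and Igsf1 by 0.29, also with all 9 positive (limma unadjusted p = 0.0273). Lcn2, an acute phase gene, differed by 0.35 in the mean (limma unadjusted p = 0.446), with 1.19 under Cpd-60, -0.06 under SAHA and -0.09 under CI-994. Ttr, the transthyretin gene of choroid plexus, differed by 0.29 (limma unadjusted p = 0.346), and Prl, the prolactin gene, by -0.39 (limma unadjusted p = 0.474). LOC673501 differed by -0.53 with all 9 differences negative (limma unadjusted p = 0.0787), and the 18S ribosomal RNA probe Rn18s by -0.37 (limma unadjusted p = 0.196).

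Pools hybridized on the same BeadChips deviated together. The deviations from treatment means of pools of different treatments correlated with a median of 0.347 over 26 pairs on the same BeadChips and of -0.31 over 28 pairs on different ones, as a description.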
